A study of Mus musculus with 4 samples.

Results

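Premyelinating stage genes are markers of the step between OL precursor cells (OPCs) and myelinating OLs, when committed precursors and newly formed OLs have left the cell cycle but have not yet wrapped axons. The 10 genes were chosen by symbol, as Bcas1, Enpp6, Itpr2, Neu4, Tmem163, Rras2, Nfasc, Cnksr3, Tmem108 and Casr, among the 53465 genes listed in the count files. RNA-Seq was performed on 1° OGCs (oligodendroglial cells) from mouse forebrain at P2 to P4, kept in differentiation medium for 3 days after shake-off and depletion of microglia. The ctrl cells carried the Zfp276 flox/flox alleles without Cre, and the Zfp276cko cells carried the same alleles together with the Sox10::Cre transgene, with 2 libraries per genotype, each from a preparation of 3 mice. The loxP sites flank exons 2 to 5 of Zfp276, the transgene drives Cre in OL lineage cells, and the strain background was a C3H x C57Bl/6J mixture. The methods of the study also describe a Rosa26 stopflox tdTomato allele in mice used for culture, which served to recognise Zfp276cko pups.

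During differentiation, OPCs first become committed precursors, which stop dividing and extend processes, then newly formed OLs, and finally myelinating OLs that make the lipids and proteins of myelin in bulk. The premyelinating state is short in the brain. Cells in it are recognised by transcripts such as Bcas1, Enpp6 and Itpr2, which are low in OPCs, and several of these genes are turned down again once compact myelin has formed. The genes serve different tasks, among them the handling of sialic acid and choline lipids (Neu4, Enpp6), Ras signalling (Rras2, Cnksr3), calcium (Itpr2, Casr) and the plasma membrane (Bcas1, Nfasc, Tmem163, Tmem108).

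Between 21068322 and 26599809 reads were counted per library. Here and below, paired values are those of replicate 1 and then replicate 2. Normalized counts (scaled to a common library size) of Zfp276 itself, over the whole gene, were 1648 and 2230 in ctrl, against 490 and 503 in Zfp276cko cells, lower in both libraries as their labels say (log2 fold change −1.97, SE 0.18). All 32 genes of a mature myelin list and all 20 of a precursor list were detected well enough to be tested, and the pan-oligodendroglial gene Sox10 had between 17805 and 20744 normalized counts. The 2 ctrl libraries stood apart from each other. The biological coefficient of variation was 0.354 in ctrl and 0.048 in Zfp276cko cells, and the median gene differed by 0.32 on the log2 scale between the ctrl replicates and by 0.09 between the Zfp276cko replicates. Neither pair could be copies of a single library, as the chi-square of their counts per degree of freedom was 84.5 in ctrl and 5.63 in Zfp276cko cells, where sampling noise alone gives about 1. The fold changes of the 9 tested genes are therefore also given without each ctrl library.

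Of the 10 genes, 9 were abundant in every library and passed the filter on low counts, and only Casr did not. All 9 had a lower mean in Zfp276cko than in ctrl cells, with log2 fold changes from −1.74 for Neu4 to −0.24 for Cnksr3 and a median of −0.71, compared with a median near 0 (−0.00125) over all 15766 tested genes, of which 50.1% had a fold change below 0. In 7 of the 9, the higher Zfp276cko library was still under the lower ctrl library, which was true of 23.7% of all tested genes, and in 0 of the 9 were the genotypes separated the other way, compared with 26.8%. The median of the 9 was −0.82 when ctrl replicate 1 was left out and −0.36 when ctrl replicate 2 was.

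None of these differences passed the test. A gene was called when edgeR's quasi-likelihood p, adjusted over all tested genes after Benjamini-Hochberg, did not exceed 0.05, the log2 fold change was 0.6 or more in size and the mean normalized count reached 20. By this rule 0 of the 9 genes were called lower and 0 higher, as were 0% of all tested genes in either direction. The deleted gene Zfp276 was not called either (edgeR adjusted p = 0.0962), and the smallest edgeR adjusted p of any gene was 0.0725. At an unadjusted p of at most 0.05 with the same thresholds on size, 3 of the 9 were lower (Bcas1, Neu4 and Rras2), against 3.02% of all genes, and 0 were higher, against 5.11%. DESeq2 called the same 3 genes lower and 0 of the 10 higher. Without the filter on low counts it had 27593 genes, of which it called 1.22% lower and 1.63% higher. Among the 15766 genes tested in edgeR it called 333 lower and 449 higher. Limma voom called 0 in either direction, as did edgeR without a filter, where 0% of 27593 genes were called lower and 0.029% higher. With edgeR on 3 libraries, which takes the lone ctrl library to vary like the Zfp276cko pair, 9 were called lower without ctrl replicate 1 (5.76% of all genes) and 3 without ctrl replicate 2 (7.77%), the latter again Bcas1, Neu4 and Rras2. In these 2 fits 0 of the 9 were called higher, against 10.2% and 10.8% of all genes. These are bulk cultures, so fewer cells at this stage and less RNA per cell cannot be told apart.

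**Figure D1:**
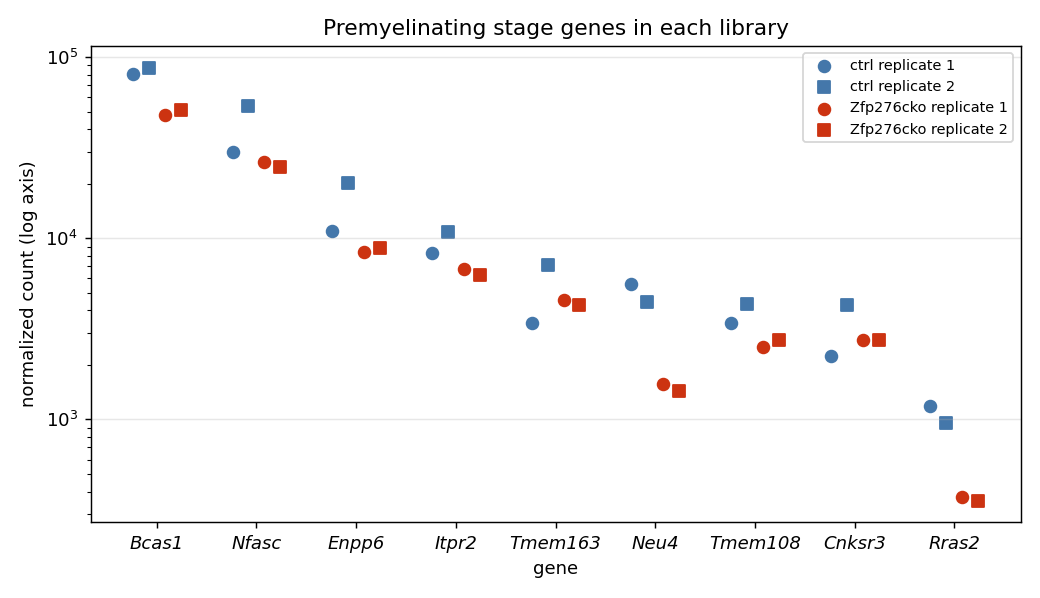
Normalized counts (log axis) of the 9 tested premyelinating stage genes in each library, with 2 ctrl libraries in blue and 2 Zfp276cko libraries in red, and circles and squares for replicates 1 and 2. For Neu4 and Rras2 the genotypes are far apart and the replicates close together, whereas for Tmem163 and Cnksr3 both red points lie between the blue ones.

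Neu4 showed the largest difference of the 9 genes. It encodes a sialidase, an enzyme that removes sialic acid from glycoproteins and gangliosides, and lies on chromosome 1 of mm10 from 94020451 to 94028334. It had 5570 and 4465 normalized counts in ctrl, against 1577 and 1427 in Zfp276cko libraries. The genotypes did not overlap, and the lower ctrl library was still well above the higher Zfp276cko library. The Zfp276cko mean of 1502 ± 106 (SD, n = 2) was 29.9% of the ctrl mean of 5017 ± 781 (SD, n = 2). The log2 fold change was −1.74 (SE 0.15, edgeR adjusted p = 0.0962), which ranked 113 from the lowest of 15766. It was −1.57 when ctrl replicate 1 was left out and −1.90 when ctrl replicate 2 was. DESeq2 gave an adjusted p of 5.89e-15 and thereby made the call that edgeR did not.

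Enpp6 encodes a choline-specific glycerophosphodiesterase on the outer face of the membrane and is used as a marker of OLs that have just begun to differentiate (chromosome 8, 46986887 to 47096762). Its normalized counts were 10967 and 20275 in ctrl, against 8427 and 8803 in Zfp276cko libraries. The genotypes did not overlap, but ctrl replicate 1 was nearer to the Zfp276cko libraries than to its own replicate, which was 1.85-fold higher. The log2 fold change of −0.86 (SE 0.32, edgeR adjusted p = 0.329) was −1.23 when ctrl replicate 1 was left out and −0.36 when ctrl replicate 2 was, and the size of the difference therefore depends on which ctrl preparation is used.

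Among the genes of Ras signalling, Rras2 came close to Neu4. It encodes a small GTPase of the Ras family (chromosome 7, 114046782 to 114117781) and had 1185 and 953 normalized counts in ctrl, against 373 and 357 in Zfp276cko libraries. The genotypes were again well separated, with 34.1% of the ctrl mean (1069 ± 164, SD, n = 2) left in Zfp276cko cells (365 ± 11.5, SD, n = 2). Its log2 fold change was −1.55 (SE 0.16, edgeR adjusted p = 0.103) and lay between −1.71 and −1.39 without either ctrl library. DESeq2 gave an adjusted p of 1.23e-09.

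Cnksr3, a scaffold protein of the family that connects Ras to its kinases (chromosome 10, 7119063 to 7212237), did not follow Rras2. It had 2243 and 4275 normalized counts in ctrl, against 2744 and 2756 in Zfp276cko libraries. Both Zfp276cko libraries thus lay between the ctrl libraries, which were 1.91-fold apart. Its fitted log2 fold change of −0.24 (SE 0.33, edgeR adjusted p = 0.766) changed its sign with the ctrl library that was used, from −0.64 without replicate 1 to 0.28 without replicate 2. The genotypes thus differed by less than the ctrl preparations did from each other.

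Itpr2 encodes the type 2 receptor for inositol trisphosphate, a calcium channel of the endoplasmic reticulum (chromosome 6, 146108299 to 146502223). Its normalized counts were 8278 and 10784 in ctrl, against 6746 and 6292 in Zfp276cko libraries. The genotypes did not overlap, and the difference was moderate, with a log2 fold change of −0.55 (SE 0.17, edgeR adjusted p = 0.261). It was −0.73 when ctrl replicate 1 was left out and −0.36 when ctrl replicate 2 was. Astrocytes also express Itpr2. Of 12 astrocyte markers 11 were tested, with a median log2 fold change of 0.01 and a summed level of 2096 to 2425 CPM (counts scaled to library size) in ctrl and 2053 to 2146 in Zfp276cko libraries, although each of the 11 differed at least 1.5-fold between the ctrl libraries. The marker with the most counts was Gfap in 3 libraries and S100b in ctrl replicate 2, and Gjb6 was at 0 in all libraries. Their part in the level of Itpr2 was not tested.

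Casr, the receptor that senses extracellular calcium, was all but absent (chromosome 16, 36493696 to 36562141). It had 8 and 3 counts in ctrl, against 1 and 0 in Zfp276cko libraries, too few to pass the filter. Summed over the libraries and corrected for their size, the ratio of Zfp276cko to ctrl was 0.0693, with an exact binomial 95% interval from 0.00161 to 0.477 that covers counting error only. Most of the 12 reads came from ctrl replicate 1, and Casr was near the limit of detection in both genotypes. Without the filter, its edgeR adjusted p was 0.458.

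Bcas1 was by far the most abundant of the 10 genes. It marks OLs at the onset of myelination (chromosome 2, 170346991 to 170427845). It had 80724 and 87503 normalized counts in ctrl, against 47738 and 51224 in Zfp276cko libraries. Here the ctrl replicates agreed, differing by only 1.08-fold, and the genotypes did not overlap. The mean was 84113 ± 4794 in ctrl and 49481 ± 2465 in Zfp276cko cells (SD, n = 2 each). The log2 fold change of −0.77 (SE 0.14) had an adjusted p of 0.162 in edgeR and of 5.97e-06 in DESeq2. Without either ctrl library it stayed between −0.82 and −0.72. The antisense genes Bcas1os1 and Bcas1os2 overlap 11.7% and 0.901% of its exon sequence but had no more than 85 and 13 counts in any library.

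Nfasc encodes neurofascin, an adhesion molecule whose glial isoform sits where the myelin loops meet the axon and whose neuronal isoform sits at nodes (chromosome 1, 132564690 to 132741797). Counts per gene do not tell these isoforms apart. It had 29853 and 53982 normalized counts in ctrl, against 26502 and 24884 in Zfp276cko libraries. The genotypes did not overlap, though ctrl replicate 1 was only slightly above them. The log2 fold change was −0.71 (SE 0.32, edgeR adjusted p = 0.389), −1.07 without ctrl replicate 1 and −0.23 without ctrl replicate 2.

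Tmem163, a zinc transporter of the plasma membrane and of vesicles (chromosome 1, 127486546 to 127679548), had 3424 and 7095 normalized counts in ctrl, against 4587 and 4284 in Zfp276cko libraries. As for Cnksr3, the Zfp276cko libraries lay between the ctrl libraries, here 2.07-fold apart. The log2 fold change of −0.25 (SE 0.37, edgeR adjusted p = 0.794) was −0.68 when ctrl replicate 1 was left out and 0.36 when ctrl replicate 2 was. Tmem108, a transmembrane protein known from vesicle transport in neurons (chromosome 9, 103482947 to 103761837), had 3421 and 4325 normalized counts in ctrl, against 2520 and 2728 in Zfp276cko libraries. Its genotypes did not overlap, with a log2 fold change of −0.56 (SE 0.15, edgeR adjusted p = 0.224), or −0.72 and −0.40 without ctrl replicates 1 and 2. Reads of the opposite strand could add to Tmem163, since Mgat5 (1495 to 2643 counts) overlaps 3.54% of its exon sequence, and to Tmem108, where Gm16252 (0 to 3 counts) overlaps 15.6%.

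**Figure D2:**
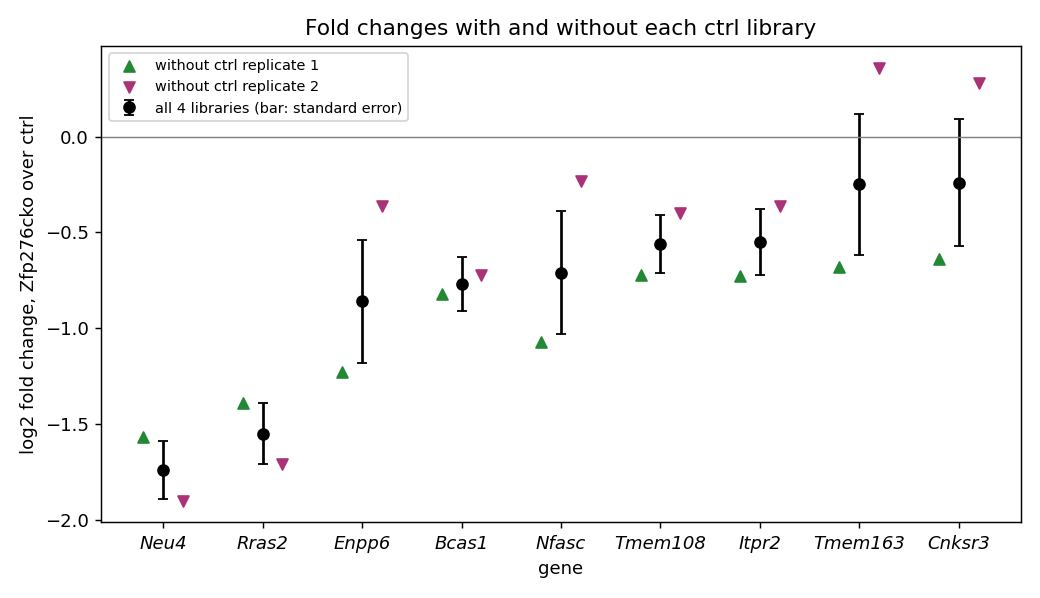
Fitted log2 fold change of Zfp276cko over ctrl for the 9 tested genes, with all 4 libraries (black, bars show the standard error) and without ctrl replicate 1 (green) or ctrl replicate 2 (purple). Neu4, Rras2 and Bcas1 stay at or below −0.72 in all 3 fits, and Tmem163 and Cnksr3 cross 0 without ctrl replicate 2.

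The genes therefore fell into different patterns in ctrl cells. Enpp6, Nfasc, Tmem163 and Cnksr3 were between 1.81- and 2.07-fold higher in ctrl replicate 2 than in replicate 1, and no gene of the 9 was at least 1.5-fold higher in replicate 1. Over all tested genes, 14.6% were at least 1.5-fold higher in replicate 2 and 14.8% in replicate 1. Neu4 and Rras2 went slightly the other way, being 1.25- and 1.24-fold higher in replicate 1. In Zfp276cko cells the replicates of all 9 genes were within 1.11-fold of each other, so that 0 of 9 reached 1.5-fold, against 4.32% of all genes.

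Markers of other cells also separated the ctrl libraries. Of the 11 tested astrocyte markers, 6 were at least 1.5-fold higher in ctrl replicate 2 and the other 5 in ctrl replicate 1, such as Gfap with 17641 and 8463 normalized counts. Neuron markers were higher in ctrl replicate 2 by at least 1.5-fold for 9 of 12 genes. Gad1, an enzyme of GABA synthesis, had 78.4 and 2002 normalized counts in ctrl, against 920 and 1003 in Zfp276cko libraries, which thus lay between the ctrl libraries. The summed level of the neuron list, to which Map2 contributed the most counts in each library, was 766 and 1332 CPM in ctrl, against 951 and 1043 CPM in Zfp276cko libraries. Most fibroblast and vessel markers went the other way. Of the 10 tested, 8 were at least 1.5-fold higher in ctrl replicate 1 and 0 in ctrl replicate 2. The collagen gene Col1a1 had 2124 counts in ctrl replicate 1 and between 56 and 82 in the other libraries. Pecam1 did not follow, with 106 and 93.4 normalized counts in ctrl, against 153 and 161 in Zfp276cko libraries. The summed level of this list was 388 CPM in ctrl replicate 1 and between 21.4 and 25.6 CPM in the other libraries. Col1a1, Col1a2 and Col3a1 contributed the most counts to it in ctrl replicate 1, and Cldn5 was at 0 throughout. Microglia markers summed to 3049 and 1372 CPM in ctrl, against 2102 and 2179 CPM in Zfp276cko libraries, in spite of the depletion step. Of these 13 markers, 10 were at least 1.5-fold higher in ctrl replicate 1 and 1 (Aif1) in ctrl replicate 2. For an interferon response list, 16 of 16 genes had both Zfp276cko values over both ctrl values, with a median log2 fold change of 3.62 (4.75 without ctrl replicate 1 and 3.01 without ctrl replicate 2). Among all tested genes, 26.8% lay over both ctrl libraries in this way. The interferon list, like the other lists, was drawn up when earlier results from the same data were known. Of its 16 genes, 14 were at least 1.5-fold higher in ctrl replicate 1 than in replicate 2. The 16 summed to 550 and 200 CPM in ctrl, against 4132 and 4029 CPM in Zfp276cko libraries. The part of these markers in the values of the premyelinating genes was not tested.

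**Figure D3:**
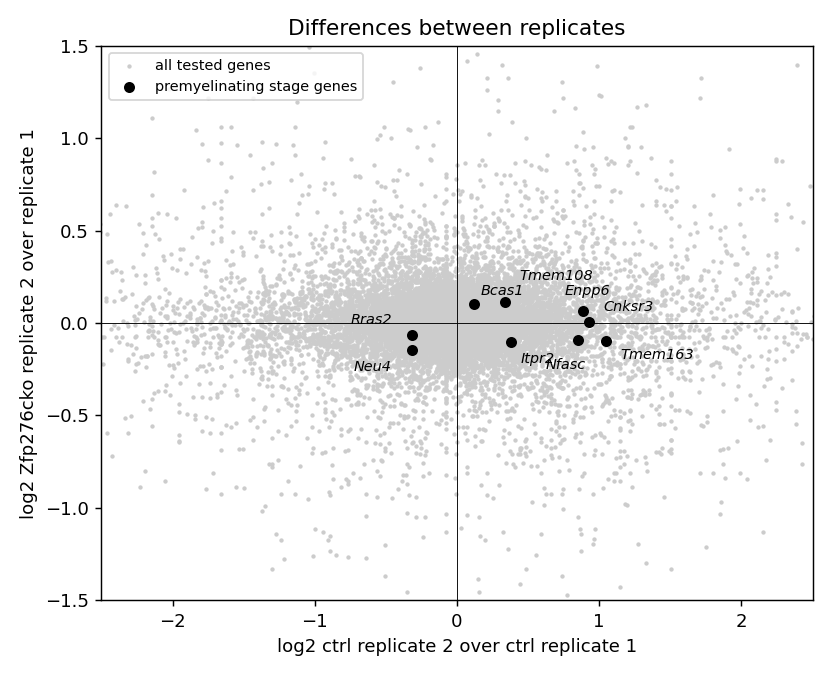
Log2 difference between the 2 ctrl libraries (x axis) and between the 2 Zfp276cko libraries (y axis) for all tested genes (grey, 548 of 15766 lie outside the axes) and the 9 premyelinating stage genes (black). The black points spread along the x axis from −0.32 to 1.05 and stay within 0.14 of 0 on the y axis.

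Levels of different genes were compared as reads per kilobase of merged exon sequence, scaled to library size (RPKM, computed here from the counts). In ctrl cells, Bcas1 (943 ± 53.7) was followed by Nfasc (125 ± 51.0), Enpp6 (103 ± 43.4), Tmem163 (51.8 ± 25.6), Neu4 (45.8 ± 7.12) and Cnksr3 (35.9 ± 15.8), and then by Itpr2 (27.2 ± 5.06), Tmem108 (16.5 ± 2.72), Rras2 (12.7 ± 1.95) and Casr (0.0577 ± 0.0388, SD, n = 2 for each gene). Bcas1 stood above 99.9% of all tested genes with a known length, and even Rras2 above 72.8%. The ctrl ranges of Nfasc and Enpp6 overlapped, as did those of Cnksr3 and Itpr2. Within each ctrl library, however, Nfasc was above Enpp6 (89.3 and 161 against 72.4 and 134). Cnksr3 was likewise above Itpr2 (24.7 and 47.1 against 23.7 and 30.8). The ranges of the neighbours Tmem163 and Neu4, and of Neu4 and Cnksr3, overlapped as well. These latter pairs changed order between the ctrl libraries, so their order is not settled by 2 libraries. In Zfp276cko cells the order was the same except for Neu4, which went from the fifth to the seventh place with 13.7 ± 0.969 (SD, n = 2), behind Cnksr3 (30.3) and Itpr2 (18.6). Rras2 then stood above only 44.9% of genes, and Bcas1, with 555 ± 27.6 (SD, n = 2), above 99.8%.

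**Figure D4:**
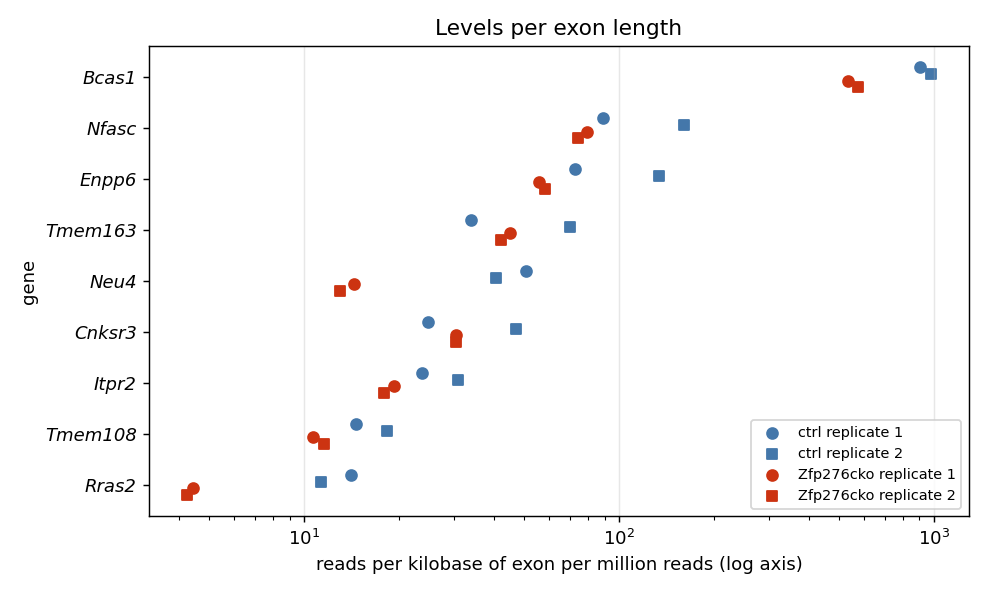
RPKM (reads per kilobase of exon, scaled to library size, log axis) of the 9 tested genes in each library, ordered by the ctrl mean, with ctrl in blue and Zfp276cko in red. Bcas1 lies at 535 or above in every library, and the red points of Neu4 lie below those of the genes next to it.

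Upstream sequences were examined because several of the genes differed in parallel. Of the 10 genes, 9 had a promoter entry in RefSeq (GRCm38.p6), with 11 windows in all; Bcas1 was the gene without one. In the 250 bases before the start, 4 motifs of 6 letters were searched on both strands. The core of Sox binding sites (ACAAAG) was found in 3 of the 11 windows, those of Casr, Cnksr3 and Tmem108, and in 16.5% of all 32851 promoters. The first 6 letters of the Zfp276 site defined in the study (AAAAGG) occurred in 1 window, that of Tmem163, and in 18.3% of all promoters. The longer consensus given for this site, which allows more than 1 base at its outer positions, was searched after the data had been seen. It was found in 1 of the 11 windows, that of Tmem108 on chromosome 9 which ends at 103693057, beginning at −154 from the start, and in 2.23% of all promoters. The E-box bound by Zeb2 (CACCTG) occurred in the windows of Neu4 and Tmem163 and in 17.2% of all promoters. A TATA box (TATAAA) was found in 0 of the 11 windows and in 12.4% of all promoters. The 2 matches in the Tmem163 window, which is not shown because it holds exon sequence, did not overlap, and a match only describes the letters present. Shown are the genes with the largest differences (Neu4, Rras2), a gene whose ctrl libraries differed (Enpp6) and one whose genotypes overlapped (Cnksr3), with matches in capitals. The windows are chr1:94020243-94020450 on the plus strand for Neu4, which ends where an annotated exon begins, chr7:114117782-114118031 on the minus strand for Rras2, chr8:46986637-46986886 on the plus strand for Enpp6 and chr10:7212238-7212487 on the minus strand for Cnksr3.
Neu4: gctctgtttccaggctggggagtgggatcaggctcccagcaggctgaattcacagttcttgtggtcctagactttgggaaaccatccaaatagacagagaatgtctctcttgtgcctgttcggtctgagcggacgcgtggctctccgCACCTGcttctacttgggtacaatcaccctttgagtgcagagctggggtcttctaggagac
Rras2: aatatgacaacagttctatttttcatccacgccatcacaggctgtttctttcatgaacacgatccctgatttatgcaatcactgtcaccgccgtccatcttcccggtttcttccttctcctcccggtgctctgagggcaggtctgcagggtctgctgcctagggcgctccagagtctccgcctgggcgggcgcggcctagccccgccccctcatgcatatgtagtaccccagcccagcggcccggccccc
Enpp6: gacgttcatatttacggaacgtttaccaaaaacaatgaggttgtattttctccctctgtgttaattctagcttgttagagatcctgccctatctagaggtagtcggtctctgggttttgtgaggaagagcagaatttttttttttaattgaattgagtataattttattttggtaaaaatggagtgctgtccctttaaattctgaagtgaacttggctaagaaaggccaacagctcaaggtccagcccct
Cnksr3: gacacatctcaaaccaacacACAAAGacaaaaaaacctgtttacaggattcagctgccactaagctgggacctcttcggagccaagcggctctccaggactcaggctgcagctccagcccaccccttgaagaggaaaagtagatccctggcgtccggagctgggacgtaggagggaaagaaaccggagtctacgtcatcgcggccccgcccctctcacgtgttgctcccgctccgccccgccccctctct
The windows differed in base composition. The full 250 bases had a GC content of 53.6% in Neu4, 59.6% in Rras2, 38.4% in Enpp6 and 59.2% in Cnksr3, with 5, 14, 4 and 14 CpG dinucleotides. The genes with the largest differences, Neu4 and Rras2, shared none of the 4 motifs.

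Other genes of the same stage were taken from a list of 26, of which 25 were in the files and tested. In 19 of these both Zfp276cko values were under the lower ctrl value and in 1 both were over the higher one, with a median log2 fold change of −0.58 (−0.60 without ctrl replicate 1 and −0.40 without ctrl replicate 2). Among all tested genes, 23.7% lay under both ctrl libraries in this way and 26.8% lay over both. EdgeR called 0 of the 25 list genes. At an unadjusted edgeR p of at most 0.05 with the thresholds on size, 8 were lower and 1 higher, against 3.02% and 5.11% of all tested genes. DESeq2 called 8 lower and 1 higher, against 1.22% and 1.63% of 27593 genes. Gpr17, a receptor that is switched on in committed precursors and holds back their maturation, had 113405 and 69766 normalized counts in ctrl, against 43296 and 41092 in Zfp276cko libraries (log2 fold change −1.12, edgeR adjusted p = 0.207, and −0.72 and −1.44 without ctrl replicates 1 and 2). Bmp4, a growth factor made by committed precursors, had 1212 and 1427 normalized counts in ctrl, against 653 and 664 in Zfp276cko libraries (edgeR adjusted p = 0.117), with log2 fold changes of −1.11 and −0.89 without ctrl replicates 1 and 2. Fyn, a Src family kinase, and Ust, a sulfotransferase that modifies glycosaminoglycans, had log2 fold changes of −0.76 and −0.79. The transcription factors Nkx2-2 and Sox6 had log2 fold changes of 0.05 each and Tcf7l2 of −0.39. Kif19a, a kinesin, was that 1 gene, with 1053 and 1340 normalized counts in ctrl, against 2272 and 2169 in Zfp276cko libraries (log2 fold change 0.89, edgeR adjusted p = 0.139).

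The stages before and after were compared in the same way. Among the 20 precursor genes the median log2 fold change was −0.38, with 11 below and 2 above both ctrl libraries, and the genes ranged from C1ql1 (−1.86), Cspg5 (−1.15) and Kcnip3 (−0.84) to Rlbp1 (0.35), Emid1 (0.59) and Sox5 (0.74). The 32 mature myelin genes had a median of −0.74, with 21 below and 2 above, and the genes ranged from Opalin (−3.12), Pllp (−1.35) and Ermn (−1.14) to Gjc3 (0.15), Apod (0.19) and Aspa (0.48). Of all tested genes, 23.7% were below and 26.8% above both ctrl libraries. EdgeR called 0 genes in either list. At an unadjusted edgeR p of at most 0.05 with the thresholds on size, 3 precursor genes were lower and 1 higher. Of the mature genes 15 were lower and 0 higher, against 3.02% and 5.11% of all tested genes. DESeq2 called 4 precursor genes lower and 1 higher, and 12 mature genes lower and 0 higher, against 1.22% and 1.63% of 27593 genes. Several of these extremes rested on 1 ctrl library. Opalin was at −1.12 without ctrl replicate 1 and −3.94 without replicate 2, Pllp at −0.72 and −1.80, C1ql1 at −1.12 and −2.36, Rlbp1 at 0.09 and 0.66, and Emid1 at 0.93 and 0.31. Likewise Aspa was at 0.21 and 0.81, Gjc3 at 0.22 and 0.07, and Apod at 0.52 and −0.10, a change of sign. Without ctrl replicate 1 the medians were −0.27 and −0.36, and without ctrl replicate 2 they were −0.41 and −0.61. The lists overlap in their range, and their difference from the premyelinating genes was not tested. Relative to each gene's mean over the 4 libraries, the median of the 9 premyelinating genes was 0.08 and 0.60 on the log2 scale in ctrl replicates 1 and 2, whereas that of the mature myelin genes was 0.31 and 0.09, so that the ctrl library with the higher values was not the same for these stages.

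**Figure D5:**
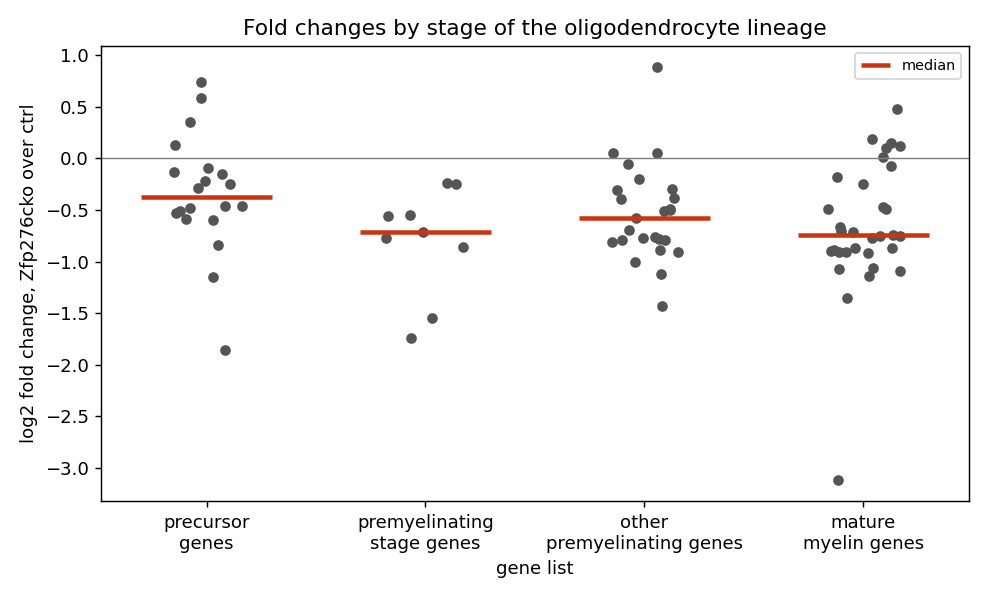
Log2 fold change of Zfp276cko over ctrl for each tested gene of the precursor list (20), the premyelinating stage genes (9), the other premyelinating genes (25) and the mature myelin list (32). Each dot is a gene and the red lines are the medians of −0.38, −0.71, −0.58 and −0.74.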

How the data were processed

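RNA-Seq was from 2 ctrl and 2 Zfp276cko preparations, grouped by their labels. Libraries were stranded (TruSeq) and read from a single end. The authors used STAR 2.5.4a and mm10 and deposited raw counts per gene symbol. The study's methods name HTSeq for counting, the submitters' processing notes featureCounts 1.5.1, and the strand setting is not given in the sources used here, so reads of overlapping antisense genes may be included.

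Counts of 53465 genes (21068322 to 26599809 per library) were analysed with R 4.3.3, edgeR 4.0.16, limma 3.58.1 and DESeq2 1.42.0. Entries sharing a symbol were kept apart. FilterByExpr left 15766 genes, which were scaled by TMM. The genotypes were then compared by the quasi-likelihood test of edgeR, with no covariates, and p-values were adjusted after Benjamini-Hochberg over all tested genes. Thresholds for a call were 0.05 (adjusted p), 0.6 (size of the log2 fold change) and 20 (mean normalized count). Normalized counts are scaled to the mean effective library size, and standard errors (SE) are the log2 fold change divided by the root of the F statistic. With 2 libraries against 2, an exact two-sided permutation test cannot go below 0.333. Lengths and positions came from GENCODE M21 (mm10), with a length for 98.1% of tested genes. Alternatives were DESeq2's size factors and test, no filter, 10 counts in every library, limma voom, a replicate block, unadjusted p, no size thresholds, each library left out, and the longest transcript as length. The pipeline was tested on simulated data.

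Named are the 10 genes, genes of fixed lists (of the precursor and mature lists the 3 lowest and 3 highest), Zfp276, Sox10 and, for each tested gene, the 2 genes nearest to it over the 4 libraries. The genes and lists were chosen with earlier results of these data known. Of the list genes of the same stage, of the marker lists and of the interferon list, those named with values were chosen after their values were seen.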

Additional observations from a re-analysis of the deposited data

How the results depend on the processing

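With 2 libraries per genotype and unequal spread in ctrl, the number of preparations limits these values more than depth, which was at least 357 normalized counts per library for all 9 tested genes. The count of genes called lower was 0 with all 4 libraries in edgeR, 3 with an unadjusted p, 3 in DESeq2, and between 0 and 9 with each library left out. The count called higher was 0 in every setting. The number of genes with both Zfp276cko libraries above ctrl was 0, and between 0 and 2 with each library left out (2 without ctrl replicate 2, where 46.5% of all genes were above). The number below was 7, and 9 without ctrl replicate 1, where 42.6% of all genes were below, and 7 without ctrl replicate 2, where 41.7% were. The log2 fold changes of Tmem163 and Cnksr3 turned to 0.36 and 0.28 without ctrl replicate 2 (ranges with each library left out −0.68 to 0.36 and −0.64 to 0.28), and the cause was not tested. The other 7 genes kept their sign in all settings. The median was −0.71, between −0.82 and −0.36 with each library left out and between −0.72 and −0.64 in the other settings. The fold between the highest and the lowest of the 9 genes per length in ctrl was 74.3 and, with the longest annotated transcript as length, 94.5. Itpr2 and Tmem108, with ctrl means of 27.2 and 16.5 RPKM by merged exons, were nearly equal with that length (34.5 and 34.4). The order of Itpr2 and Tmem108 thus rests on the length used.

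The labels do not say whether libraries with the same replicate number were prepared together. The deviations of same-numbered libraries had a correlation of −0.00529 across genes. With 1 difference per genotype, this cannot show whether they were paired. A replicate block gave a median of −0.64 and called 0 genes, as without it, with adjusted p-values of 0.135 for Neu4 and 0.148 for Rras2. Over the edgeR and voom settings with 4 libraries the adjusted p ranged from 0.0602 to 0.135 for Neu4, from 0.0683 to 0.148 for Rras2 and from 0.123 to 0.324 for Bcas1.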

Other observations

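For each tested premyelinating gene, the genes with the most similar values were sought among 14324 genes with a mean of at least 20 normalized counts, by the root mean square distance of log2 normalized counts (with 0.5 added), centred on each gene's mean, over the 4 libraries. Rras2 was nearest to Plcb1 (distance 0.020 on the log2 scale), a phospholipase that makes inositol trisphosphate, and to S100a16 (0.059). Plcb1 had a log2 fold change of −1.54 in Zfp276cko cells. Neu4 was nearest to Rras2 (0.099) and then to Plcb1 (0.11), the only case in which a premyelinating gene was among the 2 nearest of another. Its nearest gene was farther away than those of the other 8 genes.

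Enpp6 was nearest to Strn (0.023) and Fam19a2 (0.033), and Tmem163 to Acot7 (0.017) and Dpysl4 (0.024). Cnksr3 was nearest to the neurexin Nrxn3 (0.019) and to Brinp2 (0.025), and Tmem108 to Clip3 (0.0038) and Epb41 (0.013). Bcas1 was nearest to Smtnl2 (0.012) and Larp1b (0.019), Itpr2 to Sec61g and Izumo4 (0.018 each), and Nfasc to the glypican Gpc4 (0.015) and Casq1 (0.040). Smtnl2, Larp1b, Sec61g and Casq1 had means below 100 normalized counts, where counting error adds to the distance. The value added was settled after the data had been seen. With 0.5 CPM (11.8 normalized counts) added instead, as was done at first, the differences of genes with few counts were compressed. Of these 18 neighbours, 9 were then the same. The gene nearest to Neu4 became Col4a3 (0.079), followed by Rras2 (0.11), and Plcb1 was no longer among its 2 nearest. The distances describe 4 libraries, with many genes available to match any pattern.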
